A study of Homo sapiens with 16 samples.

Results

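The genes described here are 10 that build, store, mobilise and export triglyceride in liver cells, out of 56969 Ensembl genes in the deposited table of normalized counts. They were chosen by symbol: GPAM, AGPAT2, LPIN1, LPIN2, DGAT1, DGAT2, PNPLA2, PNPLA3, PLIN2 and MTTP. Each symbol matched a single row. RNA came from HepG2, an established human liver cancer cell line, after transfection with control siRNA (8 libraries) or with siRNA against HCF-1 (8 libraries). HCF-1, encoded by HCFC1, is a chromatin cofactor that DNA-binding factors bring to promoters. Cells were transfected on plating and again 2 days later, and RNA was taken 2 days after the second transfection; both groups had the same medium, transfection reagent and times. The knockdown was transient and in 1 tumour line, and the labels call the 8 libraries of a group biological replicates without saying what was kept separate, so p-values measure the spread between these libraries.

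Triglyceride is made on the endoplasmic reticulum by adding fatty acyl chains to glycerol-3-phosphate. GPAM adds the first chain at the mitochondrial surface, AGPAT enzymes add the next to give phosphatidic acid, lipins remove the phosphate to give diacylglycerol, and DGAT1 or DGAT2 adds the last chain. The product is stored in lipid droplets coated with perilipins, broken down again by lipases such as PNPLA2, or loaded by MTTP onto apolipoprotein B for secretion as very-low-density lipoprotein.

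HCFC1, the targeted gene, had 5631 ± 671 normalized counts (SD, n = 8) in control libraries and 3682 ± 339.6 in HCF-1 siRNA libraries, with a log2 fold change of -0.61 ± 0.07 (SE; limma adjusted p = 4.52e-06). Recovered reads per library were 21030830 to 32820459 in the control group and 25098840 to 43186890 in the HCF-1 siRNA group. Summed normalized counts of 10 hepatocyte markers were 525278 to 610755 in control and 625867 to 733065 in HCF-1 siRNA libraries, with no overlap, and those of 5 cholangiocyte markers were 26578 to 29604 and 21735 to 23856, again with no overlap. The markers did not all move with their sum: of 10 hepatocyte markers 7 rose, among them ALB (log2 fold change 0.52 ± 0.06), FGB fell (-0.50 ± 0.05) and APOA1 and APOA2 did not pass, and of 4 cholangiocyte markers tested KRT19, KRT7 and EPCAM fell and SOX9 rose (0.15 ± 0.03); these genes were named after their values were seen. Their part in the results below was not tested. Of 6 adipocyte markers, FABP4 and LPL were at 0 in every library, and the sum was 19.6 to 78.1 in control libraries and at most 126 in HCF-1 siRNA libraries. The sums of 7 stellate cell, 4 endothelial and 5 macrophage and blood markers overlapped between the groups. In these bulk libraries, fewer cells of a kind and less RNA per cell cannot be told apart.

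After HCF-1 siRNA, 5 of the 10 genes rose, 1 fell and 4 did not pass the test, at a limma adjusted p under 0.05 with Benjamini-Hochberg adjustment over 16081 genes tested. GPAM and PNPLA3 rose by nearly the same fold, PLIN2, LPIN2 and MTTP rose by less, and AGPAT2 fell; LPIN1, DGAT1, DGAT2 and PNPLA2 did not pass. All 10 passed the filter on low values, a mean of at least 10 normalized counts over the 16 libraries. Across all genes tested, 36.6% were called, 18.2% higher and 18.3% lower. The values of the groups did not overlap for 3 genes that rose and 1 that fell, against 9.82% of all genes tested (4.59% higher and 5.23% lower). The median log2 fold change was 0.23 over the 10 genes and 0.01 over all genes tested. A called change of at least 1.5-fold was found for GPAM and PNPLA3 among the increases and AGPAT2 among the decreases; over all genes tested these shares were 5.65% higher and 3.25% lower.

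**Figure D1:**
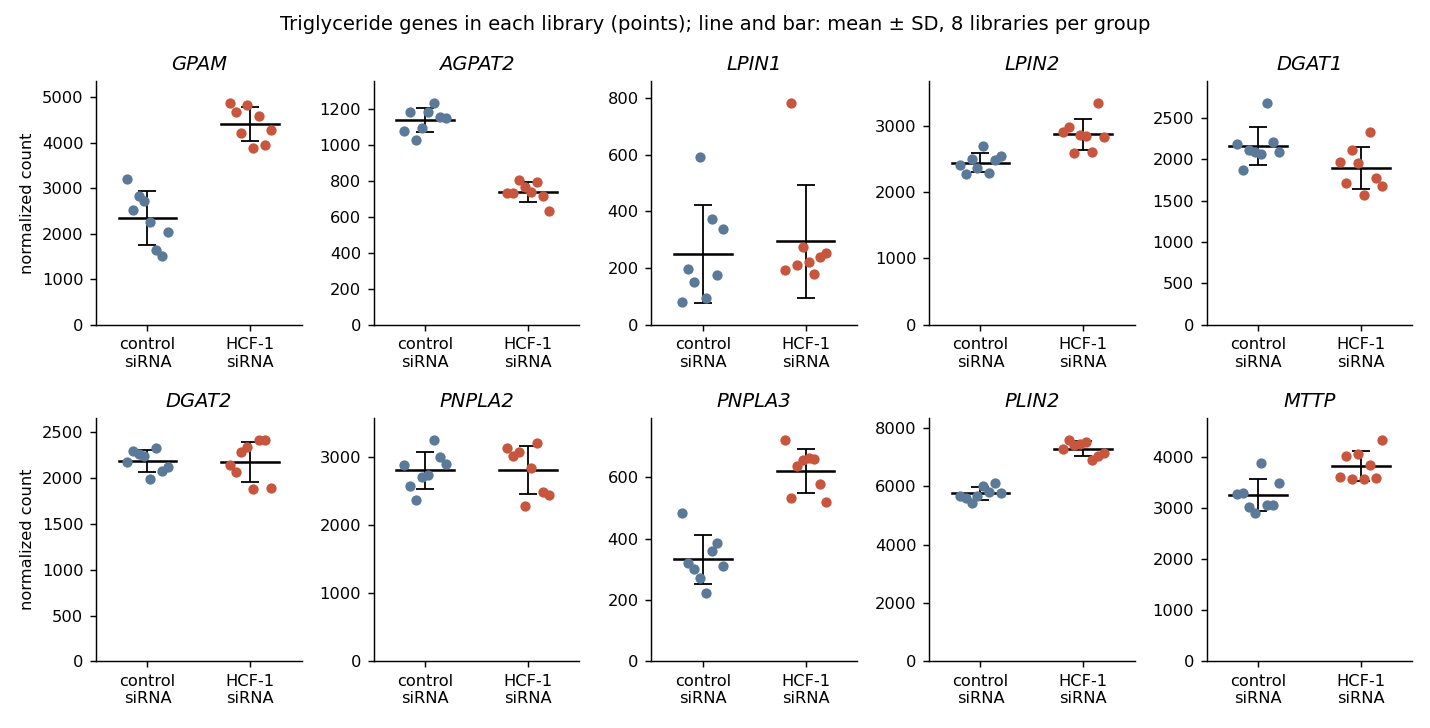
Normalized count of each of the 10 genes in each of 16 libraries (points; vertical axes are normalized counts and differ between panels), with the group mean and SD. The points of the groups are fully separated for GPAM, AGPAT2, PNPLA3 and PLIN2, and overlap for the other 6 genes.

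GPAM (ENSG00000119927), the mitochondrial glycerol-3-phosphate acyltransferase that starts the pathway, rose in HCF-1 siRNA libraries. Control libraries held 1511 to 3214 normalized counts with a median of 2393, and HCF-1 siRNA libraries 3891 to 4872 with a median of 4439.7. Every HCF-1 siRNA library was above every control library. The means were 2340.3 ± 592 and 4413 ± 383 (SD, n = 8 each), a log2 fold change of 0.95 ± 0.13 (SE; limma adjusted p = 2.45e-05), or 1.94-fold with a 95% interval of 1.6 to 2.34. The exact two-sided permutation p was 1.55e-04, the smallest that 8 against 8 can give. GPAM was also more uneven among control libraries, with an SD of 0.38 on the log2 scale, than among HCF-1 siRNA libraries, with 0.13; this difference in spread was not tested.

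AGPAT2 (ENSG00000169692), the acyltransferase of the endoplasmic reticulum that makes phosphatidic acid and whose loss causes a congenital lipodystrophy, was the 1 called decrease. Its normalized counts were 1024 to 1231 with a median of 1153 in control libraries and 630.2 to 805 with a median of 735 in HCF-1 siRNA libraries. No value was shared between these ranges. The mean went from 1137 ± 67.6 to 738 ± 54.1, to 64.9% of control, with a log2 fold change of -0.62 ± 0.05 (limma adjusted p = 2.53e-07; exact permutation p = 1.55e-04, the smallest possible). GPAM and AGPAT2, each 1 of several genes for the first and the second acylation steps, thus moved in opposite directions. Other genes of these steps were mixed. GPAT3 and AGPAT5 rose and AGPAT1 fell, as given below. GPAT4 (log2 fold change 0.04 ± 0.04, limma adjusted p = 0.477) and AGPAT3 (-0.02 ± 0.06, limma adjusted p = 0.847), named after their values were seen, did not pass.

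The promoters of GPAM and AGPAT2 are shown because these genes moved apart in the same libraries. Each is the 250 bases before the RefSeq start site (GRCh38.p14), 5′ to 3′ on the strand of the gene, with the GC box GGGCGG or its reverse complement in capitals.
GPAM, minus strand, chr10:112183766-112184015: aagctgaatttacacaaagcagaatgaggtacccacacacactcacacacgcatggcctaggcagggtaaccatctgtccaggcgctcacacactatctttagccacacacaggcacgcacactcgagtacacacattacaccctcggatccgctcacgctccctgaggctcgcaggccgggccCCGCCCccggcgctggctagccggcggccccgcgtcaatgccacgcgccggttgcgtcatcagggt
AGPAT2, minus strand, chr9:136687458-136687707: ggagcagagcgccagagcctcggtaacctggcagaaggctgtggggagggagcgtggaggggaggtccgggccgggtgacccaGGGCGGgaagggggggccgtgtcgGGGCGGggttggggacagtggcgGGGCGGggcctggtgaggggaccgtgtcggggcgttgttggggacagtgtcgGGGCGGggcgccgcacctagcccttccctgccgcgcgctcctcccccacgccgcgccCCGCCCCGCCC
The GPAM stretch was 62% G or C with 1 GC box, and the AGPAT2 stretch 77.6% with 6, of which the last 2 share a base. RefSeq promoters of 300 bases (250 before to 50 after the start) were matched for 7 of the 10 genes, 11 promoters in all; DGAT1, DGAT2 and PNPLA3 were not matched. On either strand, GGGCGG was in 8 of those 11 promoters, at least 1 for each of the 7 genes, and in 45% of 35116 promoters. The ETS site CCGGAAG and the ZNF143 letters ACTACAA were in none of the 11, against 10.3% and 2.77% of all promoters. The sterol element TCACNCCAC was in 1 promoter of PNPLA2, against 1.13% of all, and CCAAT was in GPAM and in 1 promoter of MTTP, against 34.6%. A match describes these letters and is not a binding site.

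The lipins, which turn phosphatidic acid into diacylglycerol and also act in the nucleus as transcriptional coregulators, gave unlike results. LPIN2 (ENSG00000101577) had 2270.3 to 2692 normalized counts with a median of 2444 in control libraries and 2596 to 3343 with a median of 2859 in HCF-1 siRNA libraries. The ranges overlapped, with 6 of 8 HCF-1 siRNA libraries above the highest control. LPIN2 rose 1.18-fold (95% interval 1.09 to 1.27), a log2 fold change of 0.23 ± 0.05 (limma adjusted p = 0.0017; exact permutation p = 6.22e-04).

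LPIN1 (ENSG00000134324), the lipin whose RNA responds most to fasting and hormones, varied more within each group than between them. Its normalized counts ran from 81.8 to 592 with a median of 186 in control libraries and from 179.8 to 781 with a median of 231 in HCF-1 siRNA libraries. The highest value was 7.23 times the lowest in the control group and 4.34 times in the HCF-1 siRNA group, where 781 in replicate 2 stood apart from 179.8 to 274 in the other 7. The log2 fold change was 0.35 ± 0.38 (limma adjusted p = 0.507; exact permutation p = 0.423), and the 95% interval of the fold ran from 0.727 to 2.23. Without HCF-1 siRNA replicate 2 the log2 fold change was 0.12 (limma adjusted p = 0.812), and without control replicate 4, the highest control, it was 0.57 (limma adjusted p = 0.227). LPIN1 was counted from 86 to 755 reads per library.

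The final step, from diacylglycerol to triglyceride, is carried out by a pair of unrelated enzymes, DGAT1 of the endoplasmic reticulum and DGAT2, which also sits at lipid droplets. DGAT2 (ENSG00000062282) had 1986 to 2328 normalized counts with a median of 2208 in control libraries and 1883 to 2417 with a median of 2213 in HCF-1 siRNA libraries. These ranges overlapped almost wholly. Its fold change was 0.994 with a 95% interval of 0.913 to 1.08 (limma adjusted p = 0.923; exact permutation p = 0.88).

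DGAT1 (ENSG00000185000) lay near the threshold. Control libraries held 1871 to 2676 normalized counts with a median of 2098, and HCF-1 siRNA libraries 1565 to 2333 with a median of 1863. In the HCF-1 siRNA group, 4 of 8 libraries were below the lowest control. The log2 fold change was -0.20 ± 0.08 with a 95% interval of -0.37 to -0.03, and it did not pass adjustment over all genes (limma adjusted p = 0.0603; exact permutation p = 0.0353, not adjusted). DGAT1 was called lower without HCF-1 siRNA replicate 3 (-0.22; limma adjusted p = 0.0409), HCF-1 siRNA replicate 6 (-0.24; limma adjusted p = 0.0161) or control replicate 2 (-0.23; limma adjusted p = 0.0382), and under 3 other settings given in the closing section. In a current annotation (GENCODE 29, GRCh38), 3.36% of its exon bases are shared with HSF1 on the opposite strand and 10.7% with AC233992.1 on the same strand. Whether the authors counted by strand, and how reads in shared bases were assigned, is not stated in the sources used here. The overlaps may therefore affect the DGAT1 counts.

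Within a library, the DGAT1 to DGAT2 ratio moved toward DGAT2. Its log2 value was -0.02 ± 0.15 (SD, n = 8) in control and -0.21 ± 0.12 in HCF-1 siRNA libraries, with overlapping ranges. The difference was -0.19, with an exact two-sided permutation p of 0.0152, or 0.0228 adjusted over the 3 ratios examined. The fold change of DGAT2 was 0.994, so this ratio largely restates the DGAT1 change, which did not pass adjustment over all genes. For LPIN1 to LPIN2 the log2 ratio was -3.57 ± 1.02 and -3.46 ± 0.64, and the difference of 0.12 was smaller than the spread between libraries (exact permutation p = 0.785, adjusted 0.785).

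PNPLA2 (ENSG00000177666), adipose triglyceride lipase, takes the first fatty acid off stored triglyceride. It had 2375 to 3254 normalized counts with a median of 2809 in control libraries and 2289 to 3205 with a median of 2924 in HCF-1 siRNA libraries. Neither group stood above the other. The fold change was 0.998 with a 95% interval of 0.892 to 1.12 (limma adjusted p = 0.984; exact permutation p = 0.975).

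PNPLA3 (ENSG00000100344), a close relative of PNPLA2 that sits on lipid droplets and is known for a coding variant linked to fatty liver disease, rose. Control libraries held 223 to 484 normalized counts with a median of 317, and HCF-1 siRNA libraries 519 to 722 with a median of 647. The lowest HCF-1 siRNA library was above the highest control. The means were 333 ± 79.1 and 621 ± 71 (SD, n = 8 each), a log2 fold change of 0.92 ± 0.12 (limma adjusted p = 2.06e-05; exact permutation p = 1.55e-04, the smallest possible), or 1.9-fold with a 95% interval of 1.58 to 2.27. Its last exons share 148 bases, 4.58% of the PNPLA3 exon bases in GENCODE 29, with the neighbouring gene SAMM50 on the same strand. SAMM50, named after its values were seen, went the other way without passing the test, from 2227 ± 715 to 1473 ± 507 normalized counts (log2 fold change -0.60 ± 0.24; limma adjusted p = 0.0575). The SAMM50 decrease was called in 6 of 28 alternatives: without HCF-1 siRNA replicate 1 (-0.71; limma adjusted p = 0.0228) or control replicate 5 (-0.74; limma adjusted p = 0.0126), under the replicate block (limma adjusted p = 0.0356) and total-count scaling (0.0463), and with DESeq2 (adjusted p = 0.0366) and edgeR (adjusted p = 0.0453) on recovered reads.

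The balance of these paralogs changed through PNPLA3. The fold change of PNPLA2 was 0.998, so the ratio restates the PNPLA3 increase. Within a library, the log2 ratio of PNPLA3 to PNPLA2 was -3.61 to -2.57 in control libraries and -2.50 to -1.80 in HCF-1 siRNA libraries. The difference was 0.93, or 1.9-fold, with an exact two-sided permutation p of 1.55e-04, the smallest possible, and 4.66e-04 adjusted over the 3 ratios.

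**Figure D2:**
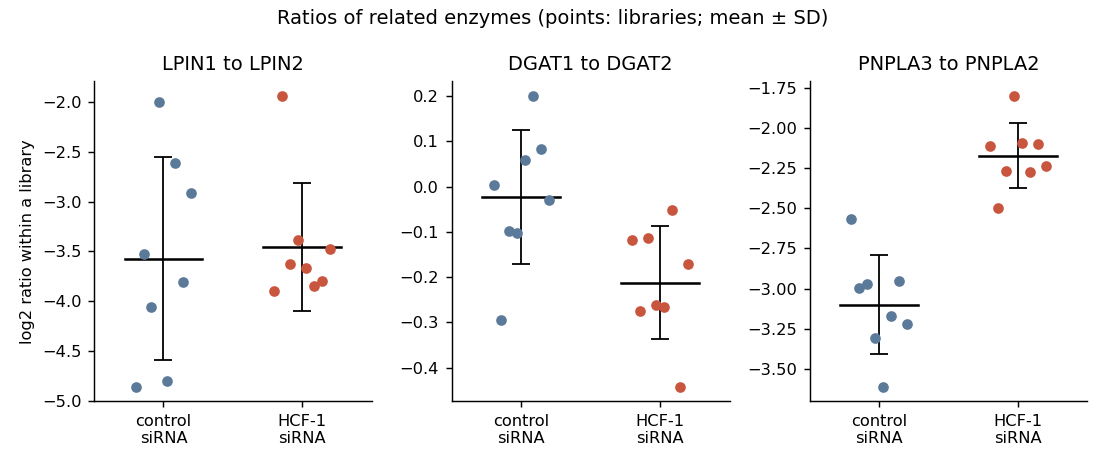
Within-library log2 ratios of normalized counts for LPIN1 to LPIN2, DGAT1 to DGAT2 and PNPLA3 to PNPLA2 (vertical axis, log2), 1 point per library, 8 in each group, with mean and SD. The groups separate for PNPLA3 to PNPLA2, overlap but shift by -0.19 for DGAT1 to DGAT2, and overlap widely for LPIN1 to LPIN2.

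PLIN2 (ENSG00000147872), the main droplet coat protein of hepatocytes, whose amount commonly follows the amount of stored lipid, was the highest of the 10 genes per exon length in both groups. Its normalized counts were 5432 to 6112 with a median of 5723 in control libraries and 6890.1 to 7595 with a median of 7348 in HCF-1 siRNA libraries. The groups were separated by a gap. The change was small and even between libraries, from 5759.8 ± 218 to 7292 ± 250.2, with a log2 fold change of 0.34 ± 0.03 (limma adjusted p = 3.99e-07; exact permutation p = 1.55e-04, the smallest possible), or 1.27-fold with a 95% interval of 1.21 to 1.33.

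MTTP (ENSG00000138823) encodes the large subunit of microsomal triglyceride transfer protein, which moves lipid onto apolipoprotein B. It had 2911 to 3890.1 normalized counts with a median of 3176 in control libraries and 3569 to 4335 with a median of 3731 in HCF-1 siRNA libraries. All 8 HCF-1 siRNA libraries were above the control median, and 3 were above the highest control. MTTP rose 1.18-fold (95% interval 1.08 to 1.28), a log2 fold change of 0.24 ± 0.06 (limma adjusted p = 0.00461; exact permutation p = 0.00218). TRMT10A, a tRNA methyltransferase gene named after its values were seen, starts head to head with MTTP on the opposite strand and shares 19 exon bases with it in GENCODE 29. TRMT10A had 206 ± 92.4 normalized counts in control and 593 ± 152 in HCF-1 siRNA libraries, and rose by 1.63 ± 0.27 on the log2 scale (limma adjusted p = 1.81e-04).

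Short promoter stretches of PLIN2 and MTTP are shown for the motif each holds near a start. Both genes rose by a small amount, PLIN2 with no overlap between the groups and MTTP with overlap. LPIN2, which rose by about the fold of MTTP, is not shown. The stretches are 30 bases from RefSeq (GRCh38.p14), 5′ to 3′ on the strand of the gene, with the motif in capitals.
PLIN2, minus strand, chr9:19127544-19127573: gctgccgcgggtCACGTGctgcggaggctt
MTTP, plus strand, chr4:99563997-99564026: cagaaacttcAATTCCCAGaggcaggggcg
The E-box CACGTG began at -69 from the PLIN2 start and was found in 1 other of the 11 promoters, that of LPIN2, against 7.26% of all 35116 promoters. AATTCCCAG, part of the motif of ZNF143, began at -123 from 1 of the MTTP starts. It was in none of the other 10 promoters, against 0.558% of all. These letters were searched after that MTTP promoter had been seen. Each 30-base stretch overlaps an annotated untranslated region. TATAAA was at -29 in PLIN2 and in 1 other promoter of MTTP, against 11.5% of all. No value in these libraries measures binding at any of these letters.

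**Figure D3:**
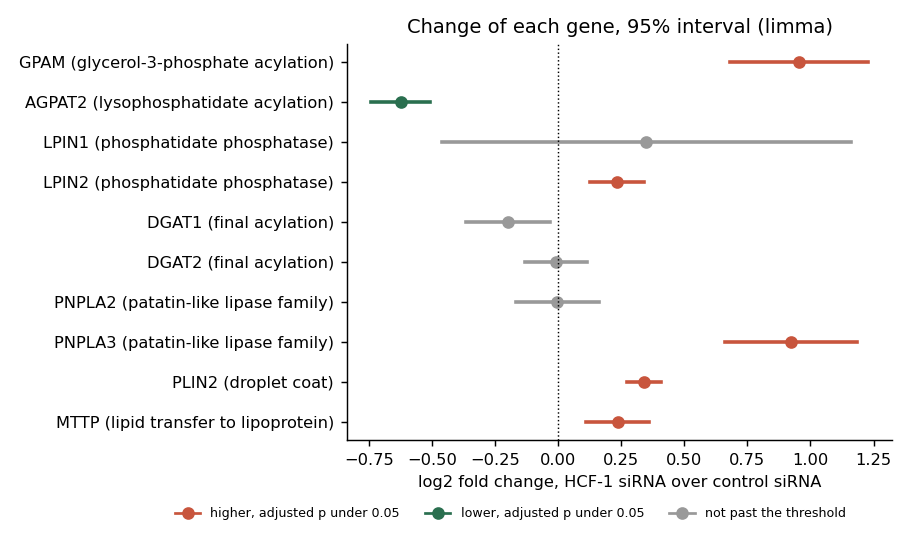
Change of each of the 10 genes between control and HCF-1 siRNA libraries with its 95% interval (horizontal axis, log2 fold change on the log2(normalized count + 1) scale, limma, 8 libraries against 8). GPAM and PNPLA3 lie near 0.9, PLIN2, LPIN2 and MTTP between 0.2 and 0.4, AGPAT2 at -0.62, and the intervals of LPIN1, DGAT2 and PNPLA2 include 0; that of DGAT1 does not, but its adjusted p is 0.0603.

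Per kilobase of exon, the order of the genes shifted with the knockdown. In control libraries the order from high to low was PLIN2 (1132 ± 42.9 normalized counts per kilobase), PNPLA2 (730.3), AGPAT2 (633), MTTP (603), DGAT1 (523), LPIN2 (359), DGAT2 (277), GPAM (239), PNPLA3 (103) and LPIN1 (21.1). The ranges of neighbours overlapped for PNPLA2 and AGPAT2, AGPAT2 and MTTP, MTTP and DGAT1, and DGAT2 and GPAM. In HCF-1 siRNA libraries it was PLIN2 (1434 ± 49.2), PNPLA2 (731), MTTP (709), DGAT1 (457), GPAM (449.9), LPIN2 (423), AGPAT2 (410.5), DGAT2 (276), PNPLA3 (192) and LPIN1 (24.8). There the ranges overlapped for PNPLA2 and MTTP, DGAT1 and GPAM, GPAM and LPIN2, and LPIN2 and AGPAT2. GPAM moved from rank 8 to rank 5 and AGPAT2 from rank 3 to rank 7, so GPAM, LPIN2 and AGPAT2 came to similar values on this scale. Exon lengths were those of GENCODE 29, whose build differs from that of the counts. The length of a gene took in the exons of all its annotated transcripts, from 1.798 kilobases for AGPAT2 to 11.861 for LPIN1. Which transcripts were expressed was not measured, so levels and ranks compared between genes are approximate.

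The 10 genes differed widely in how much they varied between libraries of a group. Among 11469 genes with a mean of at least 100 normalized counts, the median within-group SD was 0.157 on the log2 scale, and lower with higher counts. For LPIN1 it was 0.84, and 1.29% of those genes had an SD as large. PLIN2 was at the other end with 0.0522, which 98.5% of those genes reached or passed. GPAM (0.286) and PNPLA3 (0.265) were above the median, and AGPAT2 (0.0985), LPIN2 (0.0998), DGAT2 (0.117) and MTTP (0.122) below it. With the group means removed, Pearson correlations of the 45 pairs of genes over the 16 libraries ran from -0.508 to 0.599 with a median of -0.04, with 21 above 0 and 24 below; these points share libraries and are given as a description.

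**Figure D4:**
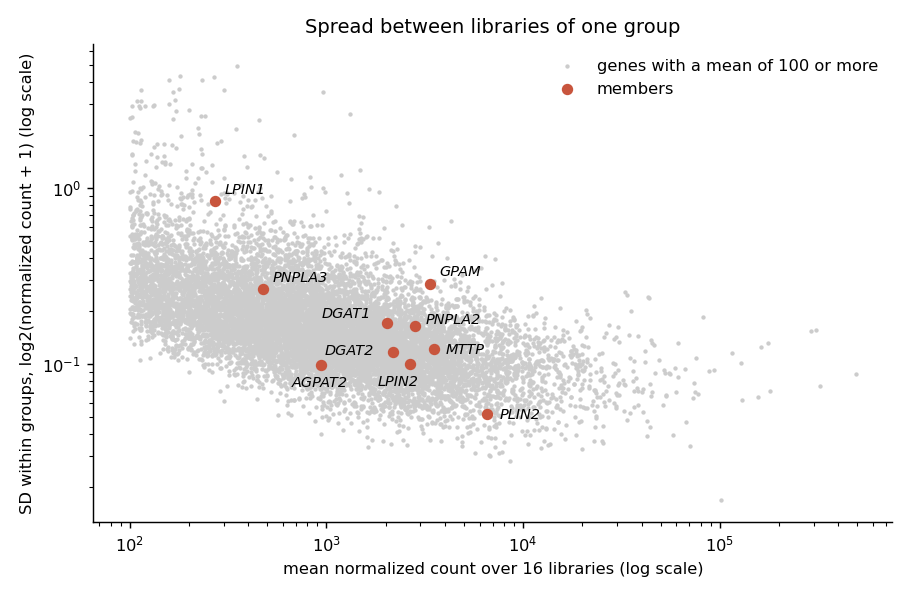
Within-group SD of log2 values (vertical axis, log scale) against mean normalized count (horizontal axis, log scale) for 11469 genes with a mean of at least 100, with the 10 triglyceride genes named. LPIN1 lies at 0.84, and 1.29% of these genes had an SD as large. PLIN2 lies at 0.0522, near the lower edge. The share is over all 11469 genes and not over genes of similar level.

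Genes with the pattern most like 3 of the members were sought among 12728 genes with a mean of at least 50, by Pearson correlation of log2 values over all 16 libraries, which share the difference between the groups. The r with the group means removed comes from the same libraries that picked these genes, so it is no separate check. For GPAM they were WSB1 (r = 0.952, and 0.817 with the group means removed), TBX15 (0.939 and 0.769) and C1orf63 (0.933 and 0.679). PNPLA3 was followed most closely by SORBS2 (0.941 and 0.819), LEAP2 (0.941 and 0.705) and THAP1 (0.926 and 0.605). The genes nearest to PLIN2 were TGFBR3 (0.976 and 0.766), MMD (0.965 and 0.565) and FBXL19-AS1 (0.964 and 0.331). FBXL19-AS1 is antisense to another gene, and its reads cannot be told from those of its partner without strand.

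The rest of the pathway was described by 7 lists of 97 genes, of which 87 were tested, 23 rose, 12 fell and 52 did not pass, so 40.2% were called, near the background of 36.6%. Their median log2 fold change was 0.07, against 0.01 over all genes tested. In the order of the lists below, the shares called were 40%, 53.8%, 31.25%, 85.7%, 30.8%, 35.7% and 28.6%. Each list held few tested genes. Values after gene symbols below are log2 fold changes with their SE, 8 libraries against 8, and adjusted p-values are from limma.

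Of 10 other acyltransferases and lipins tested, 3 rose, 1 fell and 6 did not pass. GPAT3 (listed as AGPAT9), a glycerol-3-phosphate acyltransferase of the endoplasmic reticulum, rose from 201 ± 53.7 to 367 ± 42.9 normalized counts (0.90 ± 0.15, limma adjusted p = 1.36e-04). This was about the fold of GPAM. GPAT4, another gene of that step, was at 1616 ± 73.8 normalized counts in control libraries and did not pass, as given above. MOGAT3 (0.36 ± 0.09; adjusted p = 0.0062), a monoacylglycerol acyltransferase, and AGPAT5 (0.24 ± 0.06; adjusted p = 0.00366) rose, and AGPAT1, named as the 1 decrease after its values were seen, fell (-0.18 ± 0.06; adjusted p = 0.0178). AGPAT1, at 4131 ± 306 normalized counts in control libraries, and AGPAT2 thus both fell while AGPAT5 rose.

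Among 13 tested genes that supply glycerol-3-phosphate and acyl-CoA, 6 rose, 1 fell and 6 did not pass. FABP1, the liver fatty acid binding protein, went from 2799.6 ± 207 to 4543 ± 447 normalized counts, with no overlap (0.70 ± 0.06; adjusted p = 2.49e-07). CD36, a fatty acid transporter, rose (0.40 ± 0.10; adjusted p = 0.00574), as did ACSL6, an acyl-CoA synthetase at low level (0.63 ± 0.22; adjusted p = 0.0302), whose call was lost without HCF-1 siRNA replicate 5 or 6 (up to an adjusted p of 0.0625) and under the replicate block (0.0685). The other called genes, named after their values were seen, were ACSL4 (0.39 ± 0.05), ACSL3 (0.29 ± 0.08) and GK (0.23 ± 0.08), which rose, and SLC27A5 (-0.21 ± 0.07), which fell; the GK call was lost without control replicate 2, 6 or 7, or with either of HCF-1 siRNA replicates 4 and 5 left out, with an adjusted p of up to 0.0582, and under total-count scaling (0.055). The SLC27A5 call was lost with no filter on low values (adjusted p = 0.0877) and under the replicate block (0.0556). FABP1 is also a gene of hepatocytes, whose marker sum was higher in the HCF-1 siRNA libraries, as given above.

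Of 16 other droplet genes tested, 3 rose, 2 fell and 11 did not pass. METTL7A, a droplet-associated methyltransferase, rose (0.47 ± 0.07; adjusted p = 4.04e-05), and its relative METTL7B fell (-0.31 ± 0.08; adjusted p = 0.00736). PLIN3, a perilipin that coats small droplets, fell from 4212 ± 401 to 3462 ± 307 normalized counts (-0.28 ± 0.06; adjusted p = 0.00234), opposite to PLIN2. AUP1 (0.18 ± 0.04) and LDAH (0.27 ± 0.10; adjusted p = 0.0496), named after their values were seen, made up the rest of the increases, and the LDAH call was lost in 16 of 28 alternatives, among them leaving out control replicate 4, 5, 6, 7 or 8, or any of HCF-1 siRNA replicates 1, 2, 3, 4, 5 and 8 (up to an adjusted p of 0.1).

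Of 7 other lipolysis genes tested, 3 rose, 3 fell and 1 did not pass; 5 of the 12 listed were under the filter. ABHD5, the coactivator of PNPLA2, had 167 ± 37.5 normalized counts in control and 123 ± 35 in HCF-1 siRNA libraries and fell (-0.45 ± 0.17; adjusted p = 0.046). That call was lost in 13 of 28 alternatives, where adjusted p reached 0.0901. Among them were leaving out control replicate 3, 4, 7 or 8, or any of HCF-1 siRNA replicates 3, 5, 6, 7 and 8. AADAC, an esterase of the endoplasmic reticulum at low level, rose (0.64 ± 0.16, limma adjusted p = 0.00509). It had 38.8 ± 9.61 normalized counts in control and 60.4 ± 11.1 in HCF-1 siRNA libraries, with overlap. PNPLA4 fell (-0.33 ± 0.07, limma adjusted p = 0.00146). The carboxylesterases CES1 (0.26 ± 0.05) and CES2 (0.31 ± 0.08) rose and the lysosomal lipase LIPA (-0.20 ± 0.06) fell, all 3 named after their values were seen.

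All 13 other lipoprotein secretion genes were tested, of which 4 rose, none fell by the test and 9 did not pass. APOB, the structural protein of very-low-density lipoprotein and the partner of MTTP, went from 276818 ± 30379 to 339085 ± 36581 normalized counts (0.29 ± 0.07; adjusted p = 0.0037), close to the fold of MTTP. APOC3, an inhibitor of triglyceride clearance (0.41 ± 0.09; adjusted p = 0.00186), and MIA3, which helps load large cargo at exit sites of the endoplasmic reticulum (0.40 ± 0.07; adjusted p = 3.18e-04), rose too, as did APOE (0.16 ± 0.05), named after its values were seen.

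In the phospholipid branch, which draws on the same phosphatidic acid and diacylglycerol, 2 of 14 genes rose, 3 fell and 9 did not pass. PEMT, which makes phosphatidylcholine from phosphatidylethanolamine in liver, went from 856 ± 46.4 to 649.5 ± 83.2 normalized counts, with no overlap (-0.41 ± 0.07; adjusted p = 3.09e-04). The choline kinase CHKB (0.40 ± 0.10; adjusted p = 0.0062) and the phosphotransferase CEPT1 (0.27 ± 0.09; adjusted p = 0.0241) rose; the CEPT1 call was lost without control replicate 2, control replicate 4 or the HCF-1 siRNA replicate 2 (up to an adjusted p of 0.0508), with no filter on low values (0.0542) and under the replicate block (0.0584). CDS2 (-0.24 ± 0.04), which turns phosphatidic acid toward phosphatidylinositol, and LPCAT3 (-0.24 ± 0.06), both named after their values were seen, fell.

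Among 14 regulators of triglyceride genes, 2 rose, 2 fell and 10 did not pass. MLXIPL, the carbohydrate-responsive factor ChREBP, went from 1423 ± 257 to 2607 ± 261 normalized counts, with no overlap (0.89 ± 0.10; adjusted p = 3.77e-06). SREBF2 rose (0.18 ± 0.07; adjusted p = 0.0442), a call lost in 14 of 28 alternatives, among them leaving out control replicate 2, 5, 6, 7 or 8, or any of HCF-1 siRNA replicates 3, 6, 7 and 8 (up to an adjusted p of 0.0907), and PPARD fell (-0.26 ± 0.07; adjusted p = 0.00979). XBP1 (-0.13 ± 0.03), named after its values were seen, also fell. SREBF1, the sterol regulatory factor known for driving GPAM and PNPLA3 transcription, was named after its values were seen and did not pass (0.14 ± 0.09; adjusted p = 0.277).

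**Figure D5:**
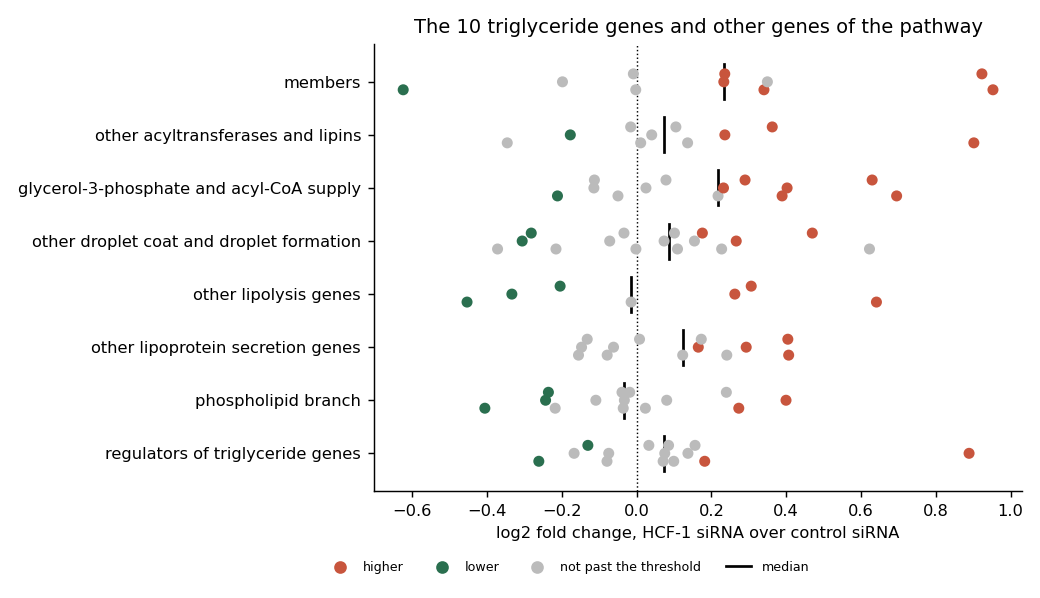
Change between control and HCF-1 siRNA libraries as a log2 fold change (horizontal axis, log2(normalized count + 1) scale) for the tested genes of the 7 pathway lists and the 10 triglyceride genes, 1 row per list, with called genes coloured by direction. Most points lie between -0.5 and 0.5, with MLXIPL, GPAT3, GPAM and PNPLA3 near 0.9.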

How the data were processed

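RNA-seq libraries were stranded mRNA libraries per the labels' protocols. The values are normalized counts, a signal scaled by 1 size factor per library, in 1 table that the authors deposited. The submitters' processing notes name DESeq2 1.16.1, featureCounts 1.4.4, STAR 2.4.1d, cutadapt 1.4.2 and the build hg19. Neither the annotation release nor the strand setting or filters are stated in the sources used here. Dividing each library by its smallest step gave whole reads for 100% of values, within 0.001 read, and these recovered reads served for depth and for the count models. No pair of libraries of a group agreed within sampling noise.

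The 8 HCF-1 siRNA and 8 control siRNA libraries were compared with limma 3.58.1 in R 4.3.3 (linear model, moderated with a mean-variance trend and robust settings) on log2(normalized count + 1), which understates changes of low genes, for 16081 genes with a mean of at least 10, with Benjamini-Hochberg adjustment over all of them and a threshold of 0.05. For single genes and ratios, exact two-sided permutation tests over libraries were added. The members and lists were chosen with earlier results of these data known, so their counts are a description. Named genes were the 10 members and HCFC1, in each pathway list up to 3 called genes of largest change (mean of 50 or more in either group; the highest-mean gene where none was called), and the 3 genes most correlated with GPAM, PNPLA3 and PLIN2; others are said to be named after their values were seen. Exon lengths and overlaps were taken by Ensembl identifier from GENCODE 29, and promoters from RefSeq (GRCh38.p14).

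The alternatives tried were a pseudocount of 0.5 or 10, a filter at 50 or none, upper-quartile, total-count and TMM scaling, array weights, edgeR 4.0.16 quasi-likelihood (5875 genes called) and DESeq2 1.42.0 (6258) on recovered reads, a block for the replicate number, each library left out and, added after seeing the data, reads thinned to the smallest library. On simulated counts for this comparison (16081 genes, 50 changed at each size), limma called 46% of genes changed 1.25-fold. The share was 76% at 1.5-fold, 96% at 2-fold and 100% at 3-fold, and 0.0378% of unchanged genes were called. Changed genes were drawn only from those with a mean of at least 50. They were a far smaller share of all genes than the 36.6% called here. The Benjamini-Hochberg cutoff depends on that share, so these rates do not carry over to the data.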

Additional observations from a re-analysis of the deposited data

Results flagged for a closer look

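Among 96 groups of 8 values examined, for the members, HCFC1, the pathway genes named and the neighbouring genes, 3 held a library whose gap to the nearest other value took up more of the group's range than Dixon's 95% critical value allows; chance gives about 1 in 20. In HCF-1 siRNA replicate 2, LPIN1 was at 781 normalized counts, while the other 7 libraries held 179.8 to 274. DGAT1 stood at 2676 in control siRNA replicate 6 and at 1871 to 2202 in the rest of that group. ACSL6 was lowest at 31.1 in control siRNA replicate 5, where the others held 63.9 to 91.9.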

How the results depend on the processing

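Over 28 alternatives, 5 members were called higher in every one, the log2 fold change of GPAM was 0.87 to 1.02, of PNPLA3 0.85 to 1.00, of PLIN2 0.31 to 0.35 and of AGPAT2 -0.65 to -0.59, and no called change turned its direction. DGAT1 was the exception among the members: it was called lower, making 2 decreases in place of 1, under TMM scaling (-0.21; limma adjusted p = 0.0494), total-count scaling (-0.23; 0.0317) and the replicate block (-0.20; 0.0127). With each library left out in turn, its log2 fold change was -0.24 to -0.15 and the number of members called lower was 1 to 2. The cause was not tested. LPIN1 was 0.12 to 0.57 and was called in no alternative. All genes called numbered 5163 to 6258.

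With the replicate number as a block, 5484 genes were called in place of 5879. Correlations of same-numbered libraries after removal of group means were -0.13 to 0.138, and 1 of 8 correlated best with its own number. The labels do not say whether the numbers pair the libraries, and low correlations over many genes cannot exclude it. At this depth, 10 of the 97 pathway list genes were under the filter and not tested. RNA alone was measured, so no value here bears on protein or stored lipid.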
